A study of Mus musculus with 16 samples.

Results

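The top dose step of a UNC0638 series was examined: the RNA library from mouse germline stem cells treated at 2 µM was compared with the library treated at 1 µM. These are 2 of the 16 samples of the series and 2 of its 12 RNA samples, chosen by the dose given in their labels. Both belong to an inhibitor series of 4 libraries, the others being a DMSO solvent control and a 0.5 µM treatment, and all 4 are printed beside each other because they show what the step adds and what it undoes. Every group had 1 library, so no difference has a replicate check, no p-value is given, and a difference between doses cannot be told apart from a difference between these cultures or libraries.

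All 4 cultures came from B6;CBA-Tg(Pou5f1-EGFP)2Mnn/J mice, in which the Pou5f1 (Oct4) promoter drives a green fluorescent reporter. Germ cells positive for the reporter and negative for KIT were sorted at postnatal day 5.5. They were grown in StemPro-34 SFM with GDNF, bFGF and EGF on mouse embryonic fibroblast (MEF) feeders, and the inhibitor was given for 48 hours. Whether the doses were given to parallel dishes of 1 culture is not given in the sources used here. RNA was extracted with an RNeasy Micro kit and sequenced by a modified Smart-seq2 protocol, a method that copies whole transcripts from little RNA. The labels do not say that feeders were removed before the extraction, so each value can be a sum over germ cells and feeder cells, and fewer cells of a type cannot be told apart from less RNA per cell.

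UNC0638 is a small molecule that occupies the substrate site of the lysine methyltransferases G9a (Ehmt2) and GLP (Ehmt1). The enzymes work as a pair and place mono- and dimethylation on lysine 9 of histone H3, a mark of silenced euchromatin, and the compound blocks the reaction without removing the protein. In the male germ line the pair is known for its role in meiotic prophase and in the silencing of genes of other lineages. At high doses compounds of this class can be toxic to cells. Genes of stress, of cell division and of germ cell identity were therefore examined, with genes of fibroblasts, the cell type of the feeders.

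The 4 libraries held 4335185 to 5777912 counts, with the 2 µM library the shallowest and the 1 µM library the deepest, and between 17266 and 17542 genes had counts. A level of 3 counts, taken as the smallest visible, was 0.524 CPM (counts scaled to a common library size) at 1 µM and 0.687 CPM at 2 µM. Germ cell identity was plain at both doses: Dazl, an RNA-binding protein of germ cells, stood at 1821 CPM at 1 µM and 1712 CPM at 2 µM. Genes of other cell types were also present. The Leydig genes Cyp11a1, Cyp17a1 and Insl3 were at 0 counts in all 4 libraries, but Star, a cholesterol transporter of steroid-making cells, stood at 3.66 CPM at 1 µM and 10.1 at 2 µM and rose. The 9 tested Sertoli genes had 5 members higher and 4 lower, and the list summed to 191 and 169 CPM. Most of that sum was Trf, at 148 and 124 CPM. Sox9 was at 12.04 and 14.9, Wt1 at 5.93 and 4.58, Amh at 0 and 0.229, and Inhbb fell from 3.84 to 1.37. The macrophage list summed to 13.4 and 17.6 CPM, with Mpeg1 at 0 in both libraries, Cd68 at 6.11 and 5.50, Ptprc at 1.57 and 2.98, and a rise of Cd14 from 1.05 to 3.21. Of 10 endothelial genes 6 were lower and 4 higher, and the list summed to 104 and 101 CPM: Flt1 was at 39.3 and 32.99, Tek at 3.14 and 1.83, Pecam1 at 5.41 and 9.16, and Vwf rose from 0 to 5 counts. Their part in the results was not tested.

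The step from 1 to 2 µM moved as many genes past 2-fold as each of the smaller dose steps did, and more of them went up than down. Of 14301 genes tested, 530 (3.71%) differed at least 2-fold in log2(CPM + 1), which is the call used throughout; 352 (2.46%) rose and 178 (1.24%) fell. From DMSO to 0.5 µM 531 genes differed, and from 0.5 to 1 µM 538. Most of the calls lie at low levels: 75 of the genes that rose and 38 of those that fell had at least 50 counts in the higher library, and with a pseudocount of 5 in place of 1 only 51 genes passed. The 95% Clopper-Pearson interval of the read split between the libraries lay above 0 for 14.5% of the genes and below 0 for 16.9%; such a gene is called resolved here. That interval covers counting error only, and amplified reads are not independent molecules, so it is too narrow as an error of the experiment. It also narrows as counts grow, so genes at high levels are resolved at smaller ratios. The share of all genes printed beside a list's share is not matched for level.

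**Figure D1:**
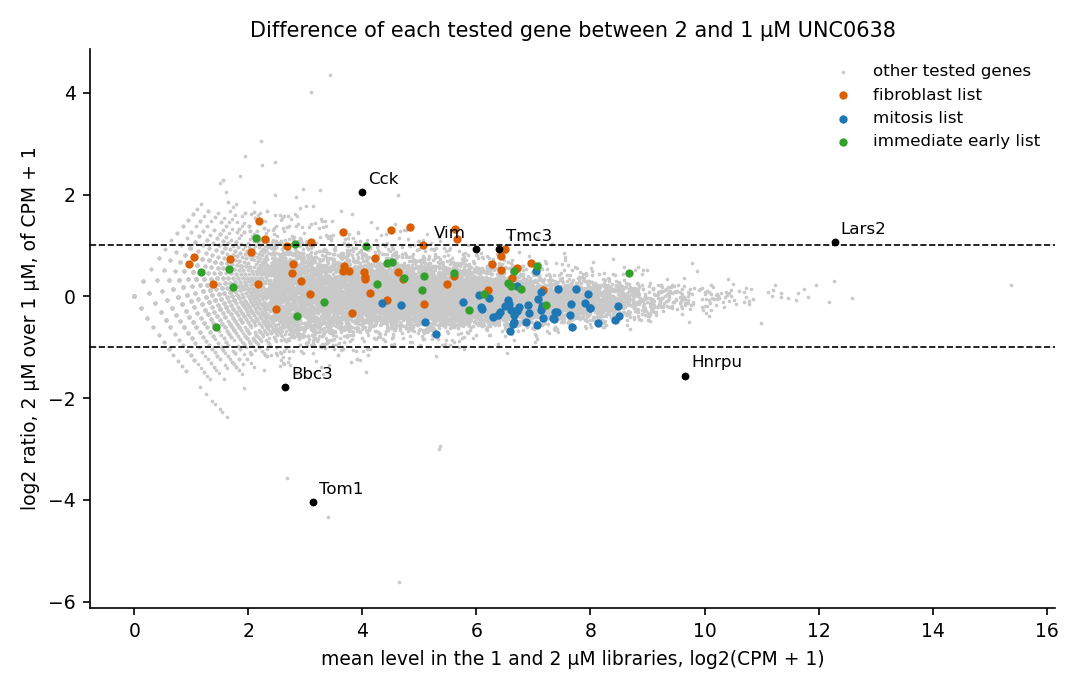
Each point is 1 of 14301 tested genes, with its mean level in the 1 and 2 µM libraries on the x axis (log2 of CPM + 1) and its log2 ratio of 2 over 1 µM on the y axis; dashed lines mark 2-fold. Fibroblast genes lie mostly above 0, mitosis genes mostly just below 0 and inside the dashed lines, and Tmc3 and Vim just inside the upper line.

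Tmc3, a member of the transmembrane channel-like family, and Vim, the intermediate filament vimentin, differed in opposite directions from DMSO at 1 µM and were both higher at 2 than at 1 µM. Tmc3 stood at 10.6 CPM in DMSO, 38.3 at 0.5 µM, 57.4 at 1 µM and 110 at 2 µM. It was highest at the top dose, and the 4 libraries are in the order of dose. The step of 0.92 on the log2 scale (counting interval 0.73 to 1.14) stayed just short of the 2-fold call, and in the deposited TPM, which are scaled to transcript length, Tmc3 went from 22.0 to 41.5. Vim stood at 134 CPM in DMSO, 63.2 at 0.5 µM, 42.6 at 1 µM and 82.5 at 2 µM. Its level at 2 µM lay between the DMSO and the 1 µM level and above that at 0.5 µM, with a step of 0.94 (0.72 to 1.19) and 33.6 against 64.2 TPM. The targets themselves were not called: Ehmt1 was at 103 CPM at 1 µM and 124 at 2 µM (0.27, interval 0.10 to 0.45), and Ehmt2 at 259 and 293 (0.18, interval 0.07 to 0.29).

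Few genes continued at 2 µM in the direction that a 2-fold difference at 1 µM had set. In all, 3 genes rose 2-fold at both steps (Elf3, St8sia3 and the predicted locus LOC100039982) and 2 fell at both (Pappa and Dnm3os), all 5 under 50 counts at 1 and 2 µM and named because they are so few. Elf3, an epithelial transcription factor, stood at 0 CPM in DMSO, 1.73 at 0.5 µM, 1.05 at 1 µM and 4.12 at 2 µM. Pappa, a protease that releases IGF from its binding proteins, stood at 14.2, 5.78, 3.32 and 0.92 CPM. A larger number moved in small steps: 182 genes were ordered upward through all 4 libraries with at least 2-fold in total, and in 69 of these the last step was the largest. In the other direction 184 genes were ordered downward.

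More genes turned back than went on. At 1 µM 589 genes (4.12%) were at least 2-fold below DMSO, and 141 of them (0.986% of all tested, 23.9% of the 589) then rose at least 2-fold at 2 µM. At 1 µM 371 genes (2.59%) were at least 2-fold above DMSO, and 36 of them (0.252% of all tested, 9.70% of the 371) then fell. Both comparisons use the 1 µM library, so an error in that library alone gives this pattern; the values at 0.5 µM are printed beside the levels. Of the 141 genes that came back up, 91 were still below DMSO at 2 µM and 50 above it. The 1 µM library lay at least 2-fold below all 3 others in 78 genes and above all 3 in 16. The counts below and above were 66 and 114 for the DMSO library, 29 and 7 for the 0.5 µM library and 35 and 46 for the 2 µM library.

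The genes that came back up with at least 50 counts were led by Cck, 2 predicted loci, Cebpd, Lgals3 and Timp2. Cck, which encodes the peptide cholecystokinin, stood at 15.2 CPM in DMSO, 18.1 at 0.5 µM, 5.24 at 1 µM and 24.7 at 2 µM. Only the 1 µM library was low, and the step was 2.05 (1.65 to 2.88). Cebpd, a transcription factor of the acute inflammatory response, stood at 42.5, 37.6, 11.9 and 33.7 CPM in the same order, and Lgals3, the lectin galectin-3, at 14.8, 11.6 and 4.71 CPM before a rise of 1.39 on the log2 scale. Timp2, an inhibitor of matrix metalloproteinases, stood at 51.5, 26.8, 15.0 and 40.1 CPM, so its 0.5 µM level was already low. The loci LOC100041156 and LOC621961 rose by 2.00 and 1.68 on the log2 scale.

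The genes that rose at 1 µM and then fell were led by loci that had counts in some libraries and none in others. Tom1, a protein of endosomal sorting, had no counts in DMSO or at 2 µM but 17.7 CPM at 0.5 µM and 15.5 at 1 µM; set against the floor of 3 counts it was at least 22.6-fold lower at 2 than at 1 µM. LOC676691 stood at 5.19, 44.1, 48.2 and 0 CPM and was at least 70.1-fold lower at 2 µM, and LOC100041932 was at least 27.9-fold lower. In each the 2 µM library was back at or under the DMSO level. How the counts of such loci were divided among overlapping or near-identical genes cannot be checked, so these values are uncertain.

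A second kind of gene in this group peaked in the 1 µM library. Hnrpu (now Hnrnpu), which encodes the nuclear RNA-binding protein hnRNP U, stood at 225 CPM in DMSO, 270 at 0.5 µM, 1206 at 1 µM and 409 at 2 µM. The DMSO and 0.5 µM libraries were close and the 1 µM library stood far above both, with a fall of 1.56 on the log2 scale at the last step (interval -1.64 to -1.48). Rab5a, a GTPase of early endosomes, stood at 32.5, 27.0, 126 and 57.5 CPM, and Gmcl1, a nuclear envelope protein of germ cells, at 17.4, 14.4, 73.0 and 35.1; both were picked after their values were seen. Bbc3, the p53 target that encodes the cell death protein PUMA, stood at 1.40, 2.89, 8.73 and 1.83 CPM, and 1700054N08Rik at 2.99, 4.43, 13.8 and 4.12.

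**Figure D2:**
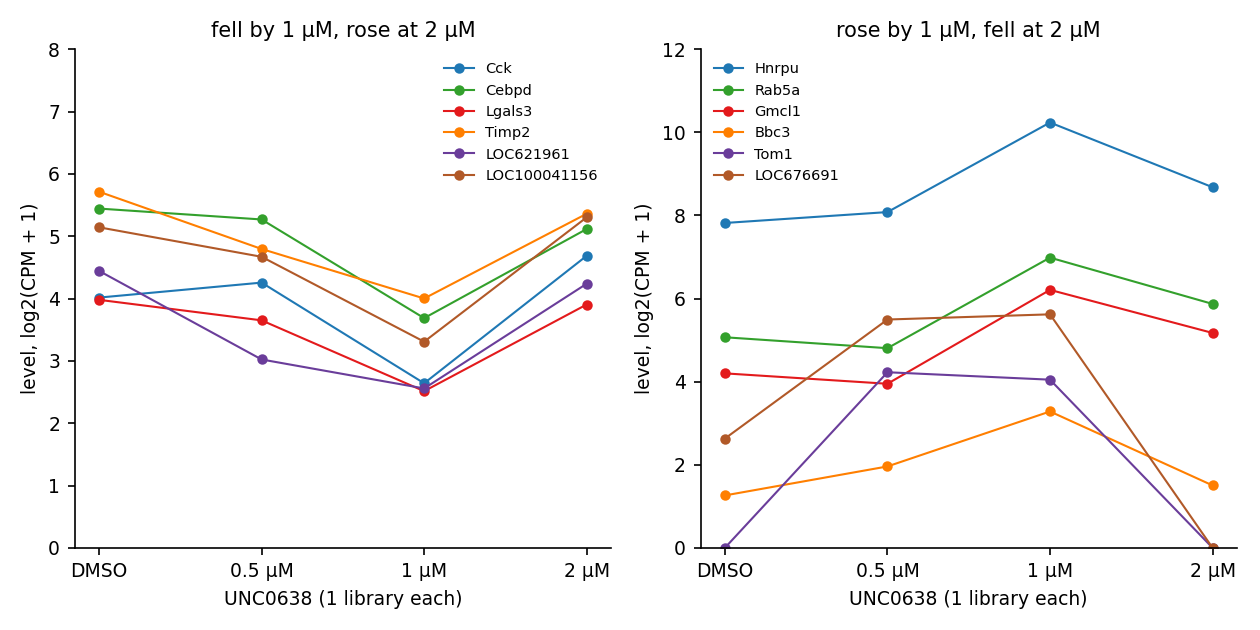
Levels, as log2(CPM + 1), of 6 genes that fell by 1 µM and rose at 2 µM (left) and 6 that rose by 1 µM and fell at 2 µM (right), 1 library per point. Tom1 and LOC676691 reach 0 at 2 µM, whereas Hnrpu, Rab5a and Gmcl1 peak at 1 µM and stay above DMSO at 2 µM.

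Genes that moved only at 2 µM, with DMSO, 0.5 and 1 µM within 0.5 of each other on the log2 scale, numbered 33 upward and 18 downward. Of these, 14 of the 33 and 8 of the 18 were predicted loci or unnamed Rik clones, shares of 42.4% and 44.4%, where such loci made up 19.4% of the genes tested. Plcl2, a phospholipase C-like protein without catalytic activity, stood at 6.19, 6.74, 7.16 and 18.1 CPM from DMSO to 2 µM. Clone 4631427C17Rik stood at 17.0, 18.3, 14.7 and 37.8 CPM, and clones 3110062M04Rik and 5830427D03Rik rose by 1.48 and 1.44. The loci LOC100042018 and LOC100039503 had no counts in the 3 lower libraries and were at least 37.2-fold and 28.9-fold higher at 2 µM. Downward, LOC100038890 went from 71.4 CPM at 1 µM to 8.48 at 2 µM, and LOC100043855 and LOC100038822 fell by 1.05 and 1.04. With a pseudocount of 5 the calls of Plcl2, 5830427D03Rik and these last loci ended, at 0.93, 0.96, -0.81 and -0.77.

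Among named genes with at least 50 counts, the largest rises at the step were in genes of varied function. Hcn2, a subunit of a pacemaker ion channel, stood at 1.20 CPM in DMSO, 2.50 at 0.5 µM, 1.92 at 1 µM and 11.7 at 2 µM. Hipk2, a nuclear kinase, stood at 5.79, 7.90, 2.62 and 14.4 CPM, and Jmy, an actin nucleator and p300 partner, at 10.4, 9.63, 5.93 and 20.4. For Hipk2 and Jmy the 1 µM library was the lowest of the 4 and the 2 µM library the highest. Hmga2, an architectural chromatin protein, stood at 8.38, 7.51, 4.89 and 15.3 CPM. The others were Cck, Cebpd, Gsk3a (a kinase of glycogen and Wnt signalling, 1.78), Ly6c (a surface antigen, 1.51), Arhgef5 (a guanine nucleotide exchange factor, 1.48) and Ptpn21 (a tyrosine phosphatase, 1.42). With a pseudocount of 5 Ptpn21 stood at 0.93 and Lgals3 at 0.97, short of the call.

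The largest falls among named genes with at least 50 counts, after Tom1, Bbc3 and Hnrpu, were in genes at low levels. Il28ra, a receptor subunit for type III interferon, stood at 6.39, 5.39, 9.60 and 2.75 CPM. Vdr, the vitamin D receptor, stood at 9.58, 11.9, 13.1 and 4.35 CPM, and Rin2, an exchange factor for Rab5, at 27.9, 30.2, 20.9 and 8.25. In all 3 the 2 µM library was the lowest of the 4. The remaining genes were Trim36 (a ubiquitin ligase, -1.34), Gtf3c4 (a subunit of the RNA polymerase III factor TFIIIC, -1.22), Amd2 (S-adenosylmethionine decarboxylase, -1.29) and Pcdhga12 (a protocadherin, -1.49). Amd2 has a near-identical copy and Pcdhga12 shares exons with its cluster, so both are uncertain. With a pseudocount of 5 only Pcdhga12 of these 7 remained called, and the others lay between -0.98 (Amd2) and -0.91 (Il28ra); Gmcl1 lay at -0.96. Lars2, mitochondrial leucyl-tRNA synthetase, picked after its values were seen, rose as well, at 3123, 4102, 3216 and 6731 CPM. Whether all reads assigned to Lars2 come from that gene cannot be checked, so these values are uncertain.

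Genes of fibroblasts, the cell type of the feeders, were mostly higher again at 2 µM, with 9 of them past 2-fold. Which cells their RNA came from was not tested. The list holds 46 genes of matrix and contractile fibroblasts, of which 45 were tested. Of these, 41 were higher at 2 than at 1 µM and 9 rose 2-fold, where 2.46% of all genes did; 24 were resolved upward (53.3%, against 14.5% of all genes) and none downward. Summed over the list, the level was 6606 CPM in DMSO, 2611 at 0.5 µM, 1173 at 1 µM and 1734 at 2 µM, so the 2 µM library held 26.2% of the DMSO level where the 1 µM library held 17.8%. The median step was 0.51, after a median of -2.35 from DMSO to 1 µM; over all genes the median step was -0.01. Because 41 of the 45 genes were 2-fold below DMSO at 1 µM, the 9 that turned back are 22.0% of those that could, close to the 23.9% over all genes that were 2-fold lower at 1 µM.

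The differences were uneven within the list. Dcn, the proteoglycan decorin, stood at 128 TPM in DMSO, 61.0 at 0.5 µM, 11.9 at 1 µM and 30.6 at 2 µM, a CPM step of 1.31 (0.95 to 1.82). Thbs2, the matrix protein thrombospondin-2, stood at 143, 66.4, 27.2 and 69.2 CPM, and Timp1, a metalloproteinase inhibitor, at 112, 58.5, 30.7 and 68.3. All 3 were more than 2-fold up from 1 to 2 µM and remained below DMSO. Mmp3, Twist2, Thy1, Ccdc80 and S100a4 also rose, by 1.27, 1.49, 1.12, 1.06 and 1.01. S100a4, a calcium-binding protein, stood at 46.7, 52.0, 21.3 and 44.0 CPM, so only its 1 µM level was low.

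Collagens differed less. Col1a1, the main chain of type I collagen, stood at 1088 CPM in DMSO, 302 at 0.5 µM, 137 at 1 µM and 149 at 2 µM. Its step of 0.12 had a counting interval of -0.03 to 0.27, which does not meet that of Timp2 (1.04 to 1.81) or of Dcn. Col1a2 stood at 68.9 and 75.6 CPM at 1 and 2 µM. None of the 8 collagens of the list was called, which is near the 3.71% called over all genes, and their median step was 0.24. The list's 8 Timp, Mmp and thrombospondin genes had a median step of 0.85, and 4 rose 2-fold, where 2.46% of all genes did. These smaller groups were formed with the values known. Pdgfra, a growth factor receptor of fibroblasts (21.1 and 20.2 CPM), Mmp2 (34.6 and 30.9) and Postn, the matrix protein periostin (5.06 and 4.12), were not higher at 2 µM.

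**Figure D3:**
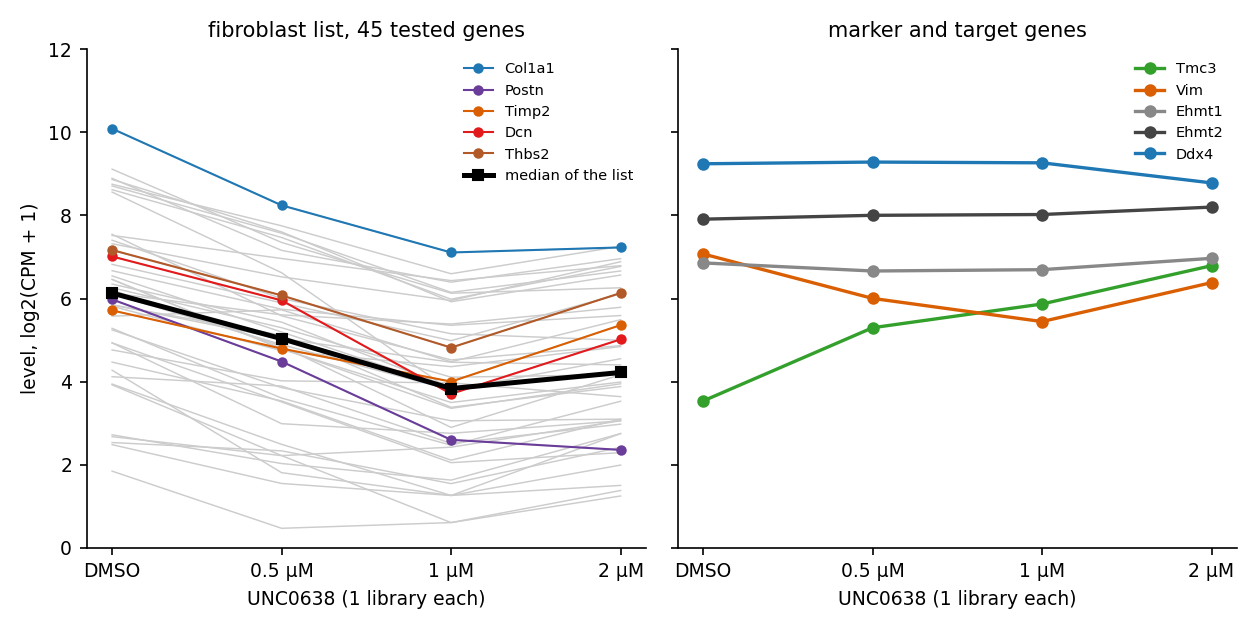
Levels, as log2(CPM + 1), in the 4 libraries of the series: left, the 45 tested fibroblast genes in grey with 5 of them and the list's median picked out; right, Tmc3, Vim, the targets Ehmt1 and Ehmt2 and the germ cell gene Ddx4. From 1 to 2 µM Timp2, Dcn and Thbs2 climb while Col1a1 and Postn stay level or lower.

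Mesenchymal genes that fibroblasts and other cells share gave a like picture. Of 29 tested, 22 were higher and 2 rose 2-fold (Zeb2, a repressor of epithelial genes, and Cd44, a hyaluronan receptor), where 2.46% of all genes rose. Of the list 15 were resolved upward (51.7%) and 3 downward (10.3%), against 14.5% and 16.9% of all genes, with a median step of 0.46. Anxa1, a phospholipid-binding protein, stood at 95.6, 59.3, 33.2 and 54.1 CPM, and Cav1, the coat protein of caveolae, at 30.3, 13.7, 8.03 and 17.0. Fn1, fibronectin, stayed at 242 and 257 CPM. Itgb3, an integrin subunit, and Tgfbi, a matrix protein, went the other way, at 9.42 and 5.04 CPM and at 20.4 and 11.7 CPM.

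Genes of cell division were mostly lower at the top dose, with no member past 2-fold, where 3.71% of all genes were. In the mitosis list 44 of 51 genes were lower at 2 than at 1 µM and 35 were resolved downward (68.6%, where 16.9% of all genes were), while 3 were resolved upward (5.88%, against 14.5%). The median step was -0.26, and the sum over the list went from 8176 CPM in DMSO, 7880 at 0.5 µM and 7798 at 1 µM to 6546 at 2 µM. The promoters of several of its members are shown here because the cell cycle genes of late G2 share 2 short elements, the cell cycle homology region (TTTGAA) and the CCAAT box. In 300-base windows from RefSeq (build GRCm38.p6; 250 bases before to 50 after the start) 26 of 42 mitosis genes with a window held both motifs on either strand, 61.9%, against 7.97% of 27025 genes. The search used TTTGAA or TTCAAA for the first and CCAAT or ATTGG for the second, and neighbouring matches of the 2 may share a base. For Prc1, 1 of its 2 windows is shown. The first 3 below had the lowest steps of the list and the last had the highest; capitals mark the 2 motifs in either orientation, written 5′ to 3′.
Kif4 (chrX:100625815-100626114, plus strand): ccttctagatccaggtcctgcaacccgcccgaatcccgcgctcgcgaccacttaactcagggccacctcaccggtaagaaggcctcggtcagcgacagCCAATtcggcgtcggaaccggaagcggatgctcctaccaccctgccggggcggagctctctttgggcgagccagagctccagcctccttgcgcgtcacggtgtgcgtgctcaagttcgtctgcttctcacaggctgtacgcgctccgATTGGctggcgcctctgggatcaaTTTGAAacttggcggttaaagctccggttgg
Prc1 (chr7:80294201-80294500, plus strand): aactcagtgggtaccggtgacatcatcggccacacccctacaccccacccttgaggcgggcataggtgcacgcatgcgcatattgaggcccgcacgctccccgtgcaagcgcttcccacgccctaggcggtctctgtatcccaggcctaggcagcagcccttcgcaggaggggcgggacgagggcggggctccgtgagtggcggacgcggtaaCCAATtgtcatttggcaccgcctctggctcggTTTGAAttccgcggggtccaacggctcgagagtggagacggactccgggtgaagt
Bub1b (chr2:118597961-118598260, plus strand): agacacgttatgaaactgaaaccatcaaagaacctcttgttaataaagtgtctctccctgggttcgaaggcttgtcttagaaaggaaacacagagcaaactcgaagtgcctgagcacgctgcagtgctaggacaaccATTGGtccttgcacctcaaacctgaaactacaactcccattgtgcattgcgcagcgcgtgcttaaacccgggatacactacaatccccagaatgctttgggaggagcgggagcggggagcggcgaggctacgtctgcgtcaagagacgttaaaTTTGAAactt
Mki67 (chr7:135716330-135716629, minus strand): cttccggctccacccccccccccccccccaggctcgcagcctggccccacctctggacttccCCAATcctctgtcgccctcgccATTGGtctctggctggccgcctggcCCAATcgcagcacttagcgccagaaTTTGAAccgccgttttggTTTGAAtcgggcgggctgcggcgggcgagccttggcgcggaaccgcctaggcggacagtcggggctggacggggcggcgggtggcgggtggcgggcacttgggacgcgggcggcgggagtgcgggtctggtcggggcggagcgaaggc
Members with both motifs in the window had a median step of -0.27 (26 genes) and those without of -0.22 (16 genes), a difference that was not tested. A match is a description of the window, not a bound site.

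Kif4, a kinesin of the mitotic spindle, stood at 52.9 CPM in DMSO, 53.1 at 0.5 µM, 47.8 at 1 µM and 28.4 at 2 µM. Prc1, a crosslinker of spindle midzone microtubules, stood at 112, 102, 119 and 73.1 CPM, and Bub1b, a spindle checkpoint kinase, at 267, 275, 244 and 161. In each the 3 lower libraries were close together and the 2 µM library was the lowest, with steps of -0.73, -0.69 and -0.60. Ccnb1, the mitotic cyclin B1, stood at 428, 397, 399 and 291 CPM (-0.45, interval -0.56 to -0.36). Top2a, the topoisomerase that separates chromosomes, stood at 409 and 315 CPM at 1 and 2 µM, and Aurka, a spindle pole kinase, at 136 and 95.3. Others hardly moved: Plk1, the polo kinase, was at 137 and 133 CPM, and Cenpa, the centromeric histone, at 135 and 143.

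The 3 members resolved upward were Mki67, the proliferation antigen (108 and 153 CPM, 0.49), Mphosph1 (now Kif20b, 97.0 and 111) and Cenpf, a kinetochore protein (205 and 225). All 3 have transcripts above 5000 bases. Across all tested genes the step varied with transcript length: its median was 0.09 under 1000 bases, -0.01 from 1000 to 2000, -0.08 from 2000 to 3000, -0.06 from 3000 to 5000, 0.09 from 5000 to 8000 and 0.26 above 8000. In the mitosis list 33 of the 45 members of up to 5000 bases were resolved downward and none upward, and of the 6 longer members 2 were resolved downward and 3 upward. With each ratio taken relative to the median of its length class, an alternative added after seeing the data, the list's median was -0.22 in place of -0.26. The part that length plays in single genes was not tested.

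**Figure D4:**
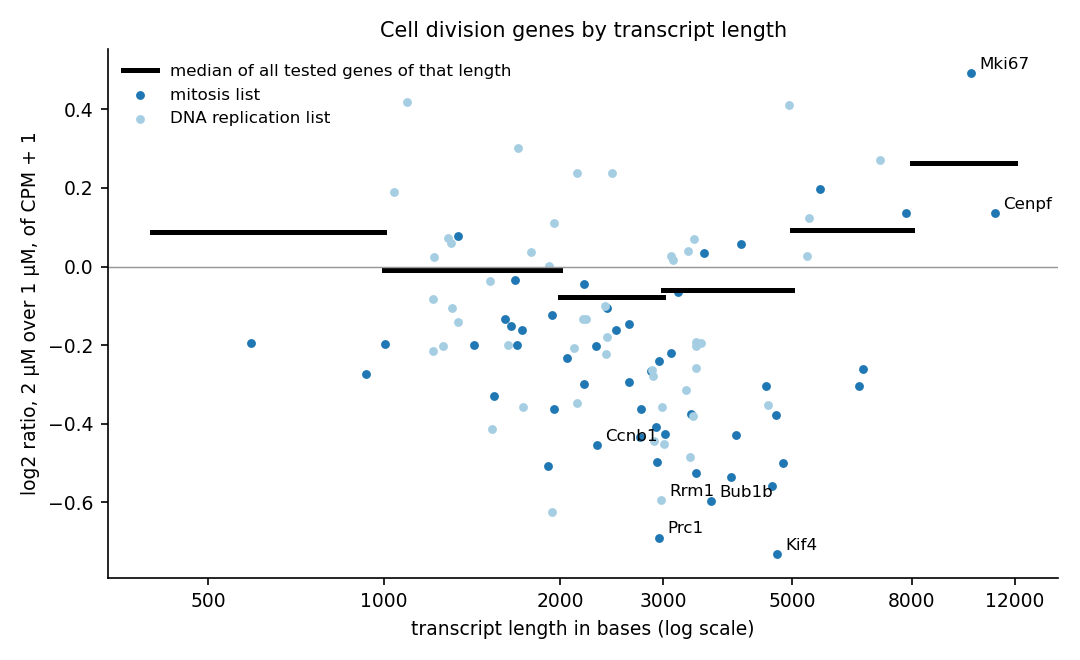
Log2 ratio of 2 over 1 µM for each mitosis and DNA replication gene against its transcript length in bases (log scale); black bars are the medians of all tested genes in 6 length classes. Mitosis genes of 2000 to 5000 bases lie mostly below the bar of their class, and Mki67 and Cenpf, among the longest, lie above 0.

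DNA replication genes followed with smaller differences. Of 50 tested, 31 were lower, 25 were resolved downward (50%, against 16.9% of all genes) and 4 upward (8%, against 14.5%). None was called, where 3.71% of all genes were, and the median was -0.14. Rrm1, the large subunit of ribonucleotide reductase, stood at 396, 411, 357 and 236 CPM from DMSO to 2 µM, and Prim2, a primase subunit, at 102, 96.5, 109 and 70.1. The 6 genes of the MCM2 to MCM7 helicase, grouped with the values known, were all resolved downward, where 16.9% of all genes were. They ranged from Mcm4 (330 to 236 CPM) to Mcm5 (463 to 402). Their sum was 2987 CPM in DMSO and 3036, 2977 and 2397 CPM at 0.5, 1 and 2 µM. Pcna, the sliding clamp, was at 255 and 221 CPM. Upward stood Gins1 (24.1 and 32.5), Clspn, the checkpoint adaptor claspin (50.4 and 67.4), Pole (111 and 134) and Dut (153 and 181).

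Cyclins and CDK inhibitors moved in both directions, 8 of 16 higher and 8 lower. Cdkn1c, the inhibitor p57, stood at 17.6, 21.6, 69.1 and 39.2 CPM, a peak at 1 µM with a step of -0.80 (-1.09 to -0.56). Cdkn1a, the inhibitor p21, stood at 117, 76.3, 49.2 and 61.6 CPM, and Ccnd1, a cyclin of early G1, at 135, 89.4, 71.7 and 93.7. Both declined up to 1 µM and were higher again at 2 µM without reaching DMSO. Ccnd2, another D-type cyclin, stood at 863, 736, 697 and 890 CPM, above DMSO at the top dose.

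Immediate early genes, which respond within minutes to growth factors and stress, were mostly higher. Of 25 tested, 20 were higher, 13 were resolved upward (52.0%, against 14.5% of all genes) and 2 downward (8%, against 16.9%). In this list 2 genes rose 2-fold, where 2.46% of all genes did, and the median step was 0.37 (0.24 with a pseudocount of 5). Junb, an AP-1 subunit, stood at 151 CPM in DMSO, 110 at 0.5 µM, 105 at 1 µM and 159 at 2 µM. Ier2 stood at 99.6, 78.2, 82.9 and 118 CPM, and Egr1, a zinc finger factor of ERK signalling, at 315, 340, 344 and 472. In each the 2 µM library was the highest of the 4. Klf4, a zinc finger factor, stood at 12.4, 12.9, 10.3 and 21.3 CPM (0.98).

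The called members were Fosb, an AP-1 subunit (4.39, 1.93, 1.75 and 5.04 CPM), and Ctgf, a secreted matrix protein (40.1, 10.8, 3.66 and 8.48). Ctgf and its relative Cyr61 (98.0, 37.2, 15.9 and 25.4) declined with dose up to 1 µM in the way of the fibroblast list. Fos was at 104 and 115 CPM, Jun at 30.5 and 33.4, and Atf3, a stress-induced member, at 2.27 and 1.15. No member of this list is in the fibroblast or mesenchymal list. Whether the difference comes from germ or feeder cells was not tested.

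Stress pathways showed no common rise. The heat shock list had 8 of 20 genes higher and 12 lower, with a median of -0.07. Of its members 7 were resolved upward (35%) and 10 downward (50%), against 14.5% and 16.9% of all genes. Hspa1b, an inducible HSP70, had 10 and 6 counts in DMSO and at 0.5 µM, none at 1 µM and 11 at 2 µM. It was at least 4.81-fold higher at 2 than at 1 µM. How reads were divided between Hspa1b and the related Hspa1a cannot be checked, so this value is uncertain. Hspb8, a small chaperone, rose from 3.32 to 8.48 CPM after 10.4 in DMSO and 10.0 at 0.5 µM. Cryab and Hspb1, small heat shock proteins, were at 16.1 and 25.7 CPM and at 21.8 and 31.2. Several larger chaperones were lower: Hspa4l was at 54.1 and 33.4 CPM, Hspa1a at 75.0 and 57.0, and Hspa8, the constitutive HSP70, at 4804 and 4478.

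The integrated stress response, in which ATF4 raises amino acid synthesis and transport genes, had more genes lower than higher. Of 38 tested, 26 were lower, 10 were resolved downward (26.3%, against 16.9% of all genes) and 5 upward (13.2%, against 14.5%), and the median was -0.12. Over all genes 51.5% were lower. Ddit3, the factor CHOP, stood at 6.39, 9.63, 13.3 and 10.5 CPM from DMSO to 2 µM, and Asns, asparagine synthetase, at 103, 133, 153 and 130. Both had increased along the lower doses and were not higher at 2 µM. Among the list's 8 aminoacyl-tRNA synthetases, grouped with the values known, 7 were lower and 4 resolved downward, led by Gars (495 to 372). Stc2, a secreted glycoprotein, had 1 count at 1 µM and 17 at 2 µM (counting interval 1.81 to 9.87), and Slc7a3, an amino acid transporter, fell by 1.49 from 2.44 CPM. Slc7a5, another transporter, was at 117 and 156 CPM.

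Chaperones of the endoplasmic reticulum had a median of -0.05 with 4 of 25 resolved upward (16%) and 6 downward (24%), against 14.5% and 16.9% of all genes. Hspa5, the chaperone BiP, stood at 911, 820, 788 and 743 CPM. Edem1, which directs misfolded glycoproteins to degradation, peaked at 1 µM (27.7, 23.7, 68.4 and 33.7 CPM) and fell by 1.00. Targets of p53 had a median of -0.06, with 4 of 29 resolved upward (13.8%) and 7 downward (24.1%), against the same shares of all genes. The called members were Bbc3 and Zmat3, where 3.71% of all genes were called. Zmat3, an RNA-binding protein, stood at 22.6, 10.8, 4.19 and 10.1 CPM. Mdm2 was at 233 and 215 CPM, and Bax, a pore-forming death protein, at 176 and 205. The oxidative stress list had a median of 0.02, with 5 of 26 resolved upward (19.2%) and 4 downward (15.4%), near the shares of all genes. Its sum was 1.07-fold higher at 2 than at 1 µM, and 1 member rose 2-fold, where 2.46% of all genes did. Hmox1, heme oxygenase, was at 295 and 282 CPM.

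**Figure D5:**
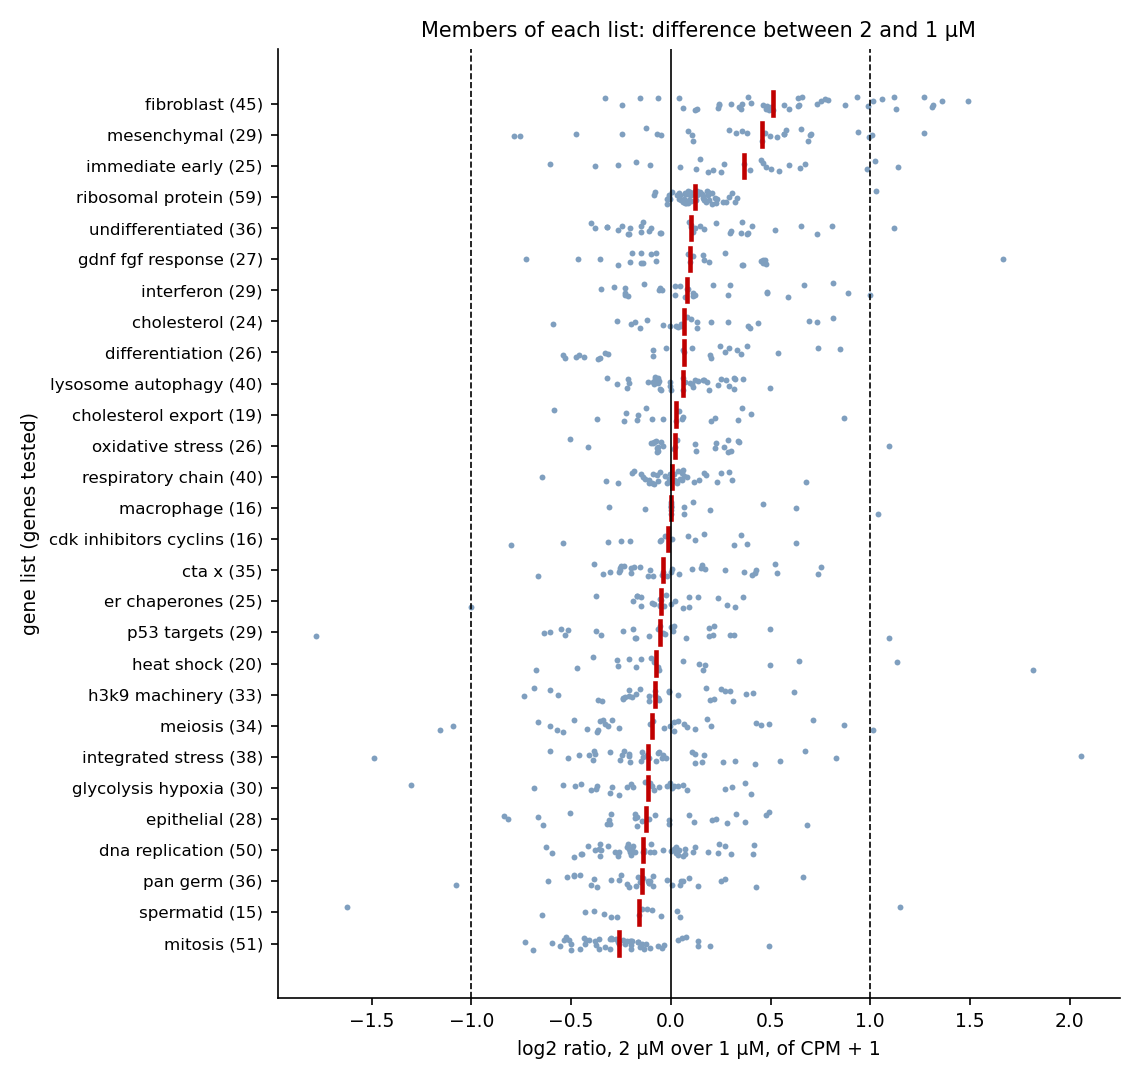
Log2 ratio of 2 over 1 µM for every tested member of each list with at least 15 tested genes (points) and the list's median (red bar), with dashed lines at 2-fold and the number of genes in parentheses. Fibroblast, mesenchymal and immediate early genes have medians of 0.51, 0.46 and 0.37 and mitosis genes of -0.26. The medians of the stress lists lie between -0.12 (integrated stress) and 0.02 (oxidative stress).

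Genes common to germ cells were lower at the top dose in majority. Of 36 tested, 26 were lower, 22 were resolved downward (61.1%, against 16.9% of all genes) and 3 upward (8.33%, against 14.5%), and the median was -0.14; relative to genes of like length it was also -0.14. Ddx4, the germ cell RNA helicase VASA, stood at 605, 623, 615 and 440 CPM from DMSO to 2 µM, a step of -0.48 (-0.56 to -0.40). Stk31, a testis protein with a Tudor domain, stood at 276, 278, 291 and 190 CPM, and Tdrd5, another Tudor protein, at 196, 211, 191 and 139. In all 3 the lower libraries were alike and the 2 µM library alone was low. Piwil4, the nuclear PIWI protein of transposon silencing, fell, at 13.6, 23.3, 19.0 and 8.48 CPM (-1.08, interval -1.75 to -0.62).

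Other germ cell genes differed less or were higher. Dazl differed by only -0.09, Sall4, a zinc finger factor, was at 280 and 298 CPM, Fkbp6, a cochaperone of the piRNA pathway, at 665 and 669, and Tex13 was higher (110 and 149). Among 15 piRNA pathway genes, grouped with the values known, 12 were lower and 11 resolved downward with a median of -0.25, where 16.9% of all genes were resolved downward. Piwil2 stood at 556 and 430 CPM and Mael at 523 and 436.

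Genes of undifferentiated spermatogonia had 20 of 36 members higher, 10 resolved upward (27.8%) and 6 downward (16.7%), against 14.5% and 16.9% of all genes, and a median of 0.10, which was 0.019 over members with a mean of at least 10 CPM. Its called member, Thy1, is a gene of fibroblasts too and belongs to both lists. Zbtb16, the self-renewal factor PLZF, stood at 94.4, 119, 84.5 and 122 CPM, and Foxo1, a forkhead factor, at 101, 94.9, 134 and 178. Pou3f1, a POU factor induced by GDNF, stood at 13.8, 18.5, 14.5 and 23.4 CPM. In Foxo1 and Pou3f1 the 2 µM library was the highest. Among 27 genes of the response to GDNF and FGF, 15 were higher, 8 were resolved upward (29.6%, against 14.5% of all genes) and 7 downward (25.9%, against 16.9%), and the median was 0.09. Ret, the GDNF receptor kinase, was at 413 and 375 CPM, Gfra1, the coreceptor, at 108 and 97.4, and Etv5, its target factor, at 223 and 194. Egr4, which had climbed from 219 CPM in DMSO over 372 to 595, was at 644. Spred3, an inhibitor of ERK signalling, was the called gene of that list, with 6 counts at 1 µM and 24 at 2 µM. Over the members of this list with a mean of at least 10 CPM the median was -0.072. Pou5f1 itself, whose promoter drives the reporter, was at 43.5 and 46.7 CPM.

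Of 26 spermatogonial differentiation genes none was called, where 3.71% of all genes were. Of the 26, 7 were resolved upward (26.9%, against 14.5% of all genes) and 4 downward (15.4%, against 16.9%, so near the share of all genes). Neurog3, a factor of early differentiation, stood at 5.39, 17.5, 17.8 and 11.9 CPM, so part of its increase was gone at 2 µM (-0.54). Sohlh2, a differentiation factor, was at 358 and 279 CPM, Rarg, a retinoic acid receptor, at 51.8 and 37.3, and Dnmt3b, a DNA methyltransferase, at 143 and 111. Rara, the other receptor, was at 43.1 and 55.2 CPM. Kit was at 32.5 and 30.5 CPM, and Stra8, the retinoic acid target, at 17.5 and 18.3.

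Of 34 meiotic genes 14 were higher and 20 lower, with 3 resolved upward (8.82%, against 14.5% of all genes), 7 downward (20.6%, against 16.9%) and a median of -0.10; this downward share is near that of all genes. The median was -0.037 relative to genes of like length and -0.15 in the deposited TPM. Sycp3, a protein of the synaptonemal complex, stood at 117, 159, 211 and 210 CPM, so its climb stopped at 1 µM. Sycp1, its partner in that complex, went on, at 218, 209, 255 and 349 CPM (0.45, interval 0.35 to 0.56). Gm1564 (now Meioc), a regulator of meiotic entry, fell from 22.7 to 9.62 CPM, and Ccdc79 (now Terb1), which ties telomeres to the nuclear envelope, fell from 40 to 12 counts. The called rise was 4930528F23Rik (now Meiob), with 1 count at 1 µM and 6 at 2 µM and a counting interval that holds 0. Tex11, an X-linked crossover gene, was at 203 and 128 CPM. Of 32 spermatid genes 15 were tested, with a median of -0.16 (-0.071 with no filter on low levels and -0.26 with a pseudocount of 0.1), and the X-linked cancer-testis list had a median of -0.04 with 4 of 35 resolved upward (11.4%) and 8 downward (22.9%), near the 14.5% and 16.9% of all genes.

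Among 33 genes of the H3K9 methylation machinery, none was called (3.71% of all genes were), 8 were resolved upward (24.2%, against 14.5%) and 9 downward (27.3%, against 16.9%). Suv39h2, an H3K9 methyltransferase of germ cells, stood at 43.1, 45.3, 122 and 73.1 CPM, another peak at 1 µM. The demethylase gene Jmjd1a (now Kdm3a), which removes the mark that the targets place, stood at 126, 136, 129 and 80.0 CPM, lowest at the top dose. Setdb2 was at 44.5 and 28.9 CPM. Trim28, a corepressor that recruits H3K9 methylation, was at 294 and 391 CPM, and Wiz, a partner of the G9a complex, at 37.9 and 46.7.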

How the data were processed

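Expected counts, TPM and FPKM per gene were deposited by the authors, 1 table per library, per the file headers. RSEM, Trim Galore and build mm10 are named in the submitters' processing notes; the aligner is not given in the sources used here. The expected counts were rounded and scaled to CPM with TMM factors (edgeR 4.0.16, R 4.3.3). The deposited TPM, scaled to length by the authors, were an alternative, and the deposited FPKM were not used. The 14301 genes whose CPM averaged 1 or more in the 12 RNA libraries were compared as log2 ratios of CPM + 1, called at 2-fold. Counting intervals (95%, Clopper-Pearson, SciPy 1.17.1) were taken on how reads divided between the pair, without the pseudocount. Genes were named by rule: Tmc3 and Vim, the 10 highest and 10 lowest named genes with at least 50 counts, up to 6 per direction of each dose class, and list members; others are marked. Members and lists were chosen with earlier results of these data known. Alternatives were DESeq2 1.42.0 size factors, total counts, TPM, pseudocounts of 0.1 and 5, other filters, counting intervals, and leaving out predicted loci. Those added after seeing the data were centring within length classes and leaving out the fibroblast and mesenchymal lists. Python 3.11.15 was used, and the steps were tested on simulated data.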

Additional observations from a re-analysis of the deposited data

How the results depend on the processing

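No paired analysis was possible because each RNA group has 1 library. The counts of called genes depend on the pseudocount and on the filter on low levels. With a pseudocount of 0.1, 1162 genes differed 2-fold (708 higher, 454 lower), 486 turned back (373 upward, 113 downward), 75 went further and 94 moved only at 2 µM, 50 of them lower. With a pseudocount of 5 these were 51 (39 and 12), 18 (11 and 7), 0, and 6 (5 higher, 1 lower). At a mean of at least 10 CPM they were 93 (65 and 28), 44 (34 and 10), 0, and 8 (5 higher, 3 lower). Without a filter 64 genes turned back downward and 52 moved upward only at 2 µM. Without predicted loci and Rik clones 117 were lower, 19 turned back downward, and 29 moved only at 2 µM (19 higher, 10 lower; this last count was added after seeing the data), and with the deposited TPM 2 went further. Fewer genes are tested under the stricter filter and without predicted loci; the cause of the other differences was not tested. The ribosomal protein median of 0.12 was 0.044 relative to genes of like length. Medians near 0 turned their sign in some settings: the GDNF and FGF response (0.09) was -0.072 and oxidative stress (0.02) -0.045 at a mean of at least 10 CPM, and relative to genes of like length the ER chaperone, heat shock and p53 medians (-0.05, -0.07 and -0.06) were 0.025, 0.0043 and 0.014 and the respiratory chain median -0.053. The other counts that were run stayed within 1.5 times, the remaining list medians moved by less than the median counting half-width of their members, and no ratio recomputed for Tmc3, Vim and the genes named for the size or class of their change turned its sign; for the other named genes this was not run. Depth limits single low genes: 3 counts are 0.687 CPM at 2 µM.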

Other observations

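Sterol synthesis genes, which were above DMSO at 1 µM with a median of 0.48 over 24 tested genes, stayed there at 2 µM with a median of 0.60. Their median step was 0.07. Fdps, farnesyl diphosphate synthase, stood at 259, 392, 436 and 478 CPM from DMSO to 2 µM. Cytosolic ribosomal protein genes had 52 of 59 members higher at 2 than at 1 µM, 38 resolved upward (64.4%, against 14.5% of all genes) and none downward (against 16.9%), with a median of 0.12 and a sum of 38458 and 41136 CPM; their transcripts are short, with a median of 679 bases, and genes under 1000 bases had a median step of 0.09. Rpl27 alone was called, at 105 and 215 CPM, where 3.71% of all genes were called. Genes with many counts are resolved at small ratios, and the shares were not matched for level. Glycolysis and hypoxia genes had 21 of 30 lower (51.5% of all genes were), 10 resolved downward (33.3%, against 16.9%) and 2 upward (6.67%, against 14.5%). Slc2a1, a glucose transporter, stood at 149, 143, 119 and 96.0 CPM. Respiratory chain genes were 20 higher and 20 lower.

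Genes of ERK feedback differed among themselves. Dusp5, a phosphatase of nuclear ERK, stood at 72.5, 72.8, 192 and 116 CPM, a peak at 1 µM, while Spred2, an inhibitor of the same pathway, stood at 24.0, 30.4, 35.4 and 45.8. Of 29 interferon-induced genes 2 were resolved upward (6.90%, against 14.5% of all genes) and 1 downward (3.45%, against 16.9%), and Ifi35 rose, from 8.20 to 17.4 CPM after 17.4 in DMSO and 12.7 at 0.5 µM. Ep300, a histone acetyltransferase picked after its values were seen, stood at 73.3, 74.7, 57.9 and 132 CPM, and its transcript of 8749 bases is among the long ones.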
